A study of Mus musculus with 12 samples.

Results

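Cultures grown from embryoid bodies (EB) for 8 days were compared with undifferentiated embryonic stem (ES) cells on 3 of the 12 arrays of a differentiation time series. The 3 arrays were those whose titles pair ES with the 8-day EB and number them 1 to 3. Embryoid bodies are clumps of ES cells that start to differentiate on their own, and here they had been dissociated and plated for 8 days in medium with fetal bovine serum. How long the aggregates had been kept before plating was not given in the sources used here. The ES cells were of R1, a mouse ES cell line, and were kept undifferentiated on gelatin with leukemia inhibitory factor, a cytokine that holds mouse ES cells in that state. The labels record no other treatment, no genetic change and no feeder layer. Day 4, 15 and 21 cultures, with 3 arrays each, made up the rest of the series. Each array carried ES RNA in 1 channel and EB RNA in the other. Nothing in the labels shows that same-day arrays came from different cultures. The p-values therefore measure the spread between arrays, and that spread may be technical.

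The outer layer of an embryoid body commonly becomes primitive endoderm, the lineage that in the embryo forms the visceral and parietal endoderm of the yolk sac. Visceral endoderm takes up maternal proteins through large endocytic receptors and secretes serum proteins and lipoproteins. Parietal endoderm lays down a thick basement membrane of laminin and type IV collagen. Both arise while the inner cells leave the pluripotent state that is maintained by a network of transcription factors including Nanog, Sox2 and Pou5f1.

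Values are log ratios as the authors deposited them, read as log2 by convention, since the labels do not settle the base. Positive values are taken to mean a higher level in EB. That direction is likely and not settled, because the titles name ES first and the dye entries pair ES with Cy5, whereas the labelling protocols pair EB with Cy5. The reading rests on the protocols and on marker genes (Zfp42 and Nanog negative, Afp and Ttr mostly positive), so the direction of such genes below cannot count in its favour. Were it wrong, every "higher" and "lower" would be exchanged and no count or p-value would move. Dyes were not swapped between arrays, and any dye effect on a gene remains in its ratio.

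Array 1 stood apart from arrays 2 and 3. Over all 10689 features tested, arrays 2 and 3 correlated with r = 0.619, whereas array 1 correlated with array 2 by r = 0.377 and with array 3 by r = 0.351. These are descriptions across features, which are not independent and share the ES side of the ratio. The spread of the log ratios (SD over features) was 0.259 on array 1, 0.251 on array 2 and 0.382 on array 3. The first principal component of the 1448 features without a gene symbol carried 35.0% of their variance over the 12 arrays and split them into sets of 7 and 5 arrays. Day 8 array 1 fell with arrays 1 and 2 of each other day, and day 8 arrays 2 and 3 fell with array 3 of each other day. What divides the sets was not tested, and the labels name no batch. Values are therefore given for each array, and group counts also without array 1, where the day 8 mean comes from the second set alone. The spread in that fit still came from the remaining arrays of both sets. Within the first set day 8 had only array 1.

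After 8 days, 244 of the 10689 features tested (2.28%) passed limma's test at an adjusted p under 0.05, 131 of them higher in EB (1.23%) and 113 lower (1.06%). Among them 4 of 20 endoderm regulators and 6 of 23 basement membrane genes were higher, and 4 of 16 pluripotency factors were lower. These are 218 named genes, 116 higher and 102 lower, and 26 features without a gene symbol. The mean reached 1 or more in 20 of the higher features and -1 or less in 15 of the lower. All 244 had the same sign on the 3 arrays, as did 44.0% of all features. Over the higher features the median was 0.51 on array 1, 0.59 on array 2 and 0.70 on array 3, and over the lower ones -0.45, -0.50 and -0.67. Because whole cultures were measured, fewer cells of a type and less RNA per cell cannot be told apart.

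**Figure D1:**
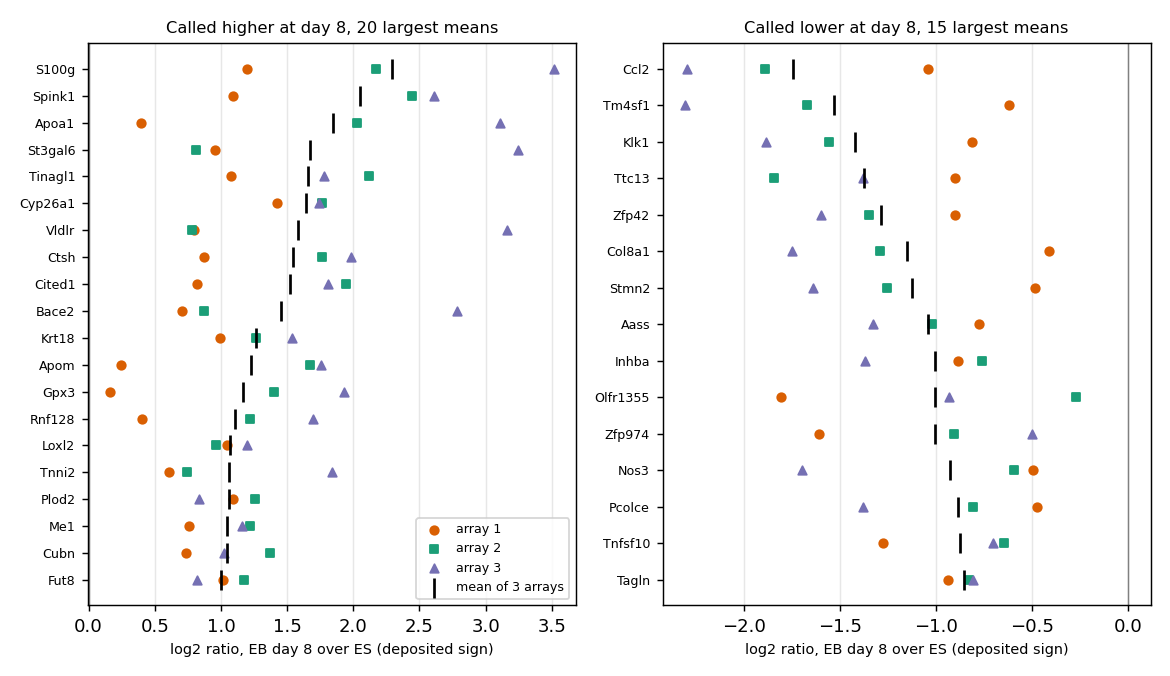
The called genes with the largest means, 20 higher (left panel) and 15 lower (right panel) in day 8 EB than in ES cells. Points are the log2 ratio on each of the 3 arrays and black ticks are their means. The arrays lie close together for Cyp26a1, Loxl2 and Fut8, whereas array 3 lies far above the other arrays for St3gal6, Vldlr and Bace2.

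The calls depended on each of the 3 day 8 arrays and on the spread shared by all 12 arrays, and their number fell furthest without array 2 or array 3. Without array 1, 205 features were called, 129 of them among the 244. Without array 2 the count was 14 and without array 3 it was 6. Of the genes described in the next paragraphs, Tinagl1, Cyp26a1, Zfp42 and Erap1 held without array 2, and S100g, Tinagl1, Zfp42 and Erap1 held without array 3. All their other calls were lost without array 2 and without array 3. Their signs could not change, because called features had the same sign on all 3 arrays. In a fit of the 3 arrays alone, only Cyp26a1 was called (adjusted p = 0.0424).

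Among regulators of endoderm, 4 of 20 measured genes were higher and 0 lower, and the calls were Cited1, Sox17, Gata6 and Gata4. Cited1, a transcriptional co-activator, measured 0.82, 1.94 and 1.81 on arrays 1 to 3 (mean 1.52 ± 0.61, SD, n = 3, adjusted p = 0.0132). Sox17, a transcription factor of primitive and definitive endoderm, measured 0.58, 1.02 and 0.90 (adjusted p = 0.00804). Gata6, a factor that specifies primitive endoderm, measured 0.55, 0.44 and 0.40 (adjusted p = 0.0368). In this average of probes the 3 arrays agreed closely for Gata6, and array 1 was the highest of them. Its probes differed, however, with means of 0.70, 0.10 and 0.59, and array 1 was the highest on the first probe only. Gata4, which acts beside Gata6 in the same lineage, measured 0.17, 0.48 and 0.45 (adjusted p = 0.0411). Factors of later visceral endoderm and liver lay near 0: Hnf4a averaged 0.05 ± 0.01 (adjusted p = 0.827) and Foxa2 0.16 ± 0.29 (adjusted p = 0.454). The Hnf4a value averages probes of opposite sign on each array, with means of 0.14 and -0.04, so its small SD hides their spread. Sox7, another factor of primitive endoderm, averaged 0.08 ± 0.06 (adjusted p = 0.731). Without array 1, 3 of the 20 were called higher, and Gata6 was lost with 0.42 (adjusted p = 0.13).

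Of the genes of basement membrane and its assembly 6 of 23 were higher and 0 lower. Their median was 0.12, 0.40 and 0.30 on arrays 1 to 3, against medians within 0.0025 of 0 over all features. Tinagl1, a secreted basement membrane glycoprotein, measured 1.08, 2.12 and 1.78 (mean 1.66 ± 0.53, adjusted p = 0.00215). Lamb1, the laminin beta 1 chain, measured 1.17, 0.93 and 0.69 (mean 0.93 ± 0.24, adjusted p = 0.019). Array 1 was thus the highest for this laminin chain and the lowest for Tinagl1. Col4a1, a chain of type IV collagen, measured 0.36, 0.84 and 0.73 (adjusted p = 0.0179), as the average of probes with means of 0.17, 1.08 and 0.70. Plod2, which hydroxylates collagen lysines, measured 1.09, 1.26 and 0.83 (adjusted p = 0.019). Sparc, a matrix glycoprotein made in quantity by parietal endoderm, measured 0.66, 1.42 and 0.69 (adjusted p = 0.0379). Plat, tissue plasminogen activator, which parietal endoderm also secretes, measured 0.43, 0.74 and 0.71 (adjusted p = 0.0346). The partner chains did not pass, with Lamc1 at 0.56 ± 0.28 (adjusted p = 0.105), Lama1 at 0.40 ± 0.25 (adjusted p = 0.0607) and Col4a2 at 0.29 ± 0.01 (adjusted p = 0.109). The Lama1 value averages probes with means of 0.68 and 0.12, and that of Col4a2 probes with -0.05, 0.57 and 0.36. Without array 1 only 2 of the 23 were called, and Lamb1 had 0.81 (adjusted p = 0.0666).

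Genes of uptake and lysosomal breakdown, the absorptive side of visceral endoderm, were higher in 4 of 18 cases and lower in 0, with list medians of 0.15, 0.52 and 0.58. Cubn, an endocytic receptor for vitamin B12 complexes and other ligands, measured 0.73, 1.37 and 1.02 (adjusted p = 0.0478). Lrp2, or megalin, the receptor that works with Cubn, measured 0.38, 1.20 and 1.37 (adjusted p = 0.0493). Ctsh, a lysosomal cysteine protease, measured 0.88, 1.77 and 1.99 (mean 1.54 ± 0.59, adjusted p = 0.0235), and its probes had means of 1.71 and 1.37. For all of these genes array 1 was the lowest and still positive. Cd63, a membrane protein of late endosomes, was the exception in order, with 0.53, 0.66 and 0.42 (adjusted p = 0.022). Of the 18 members 17 had a mean above 0. Dab2, the adaptor that couples megalin to endocytosis, averaged 0.46 ± 0.24 and did not pass (adjusted p = 0.0711), and its probes had means of 0.70 and 0.22. Without array 1, 3 of the 18 were called.

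The secreted products of visceral endoderm divided the arrays. Of 21 serum and secreted endoderm proteins 2 were higher and 0 lower, with list medians of 0.04, 0.10 and 0.84. Spink1, a secreted trypsin inhibitor, measured 1.09, 2.45 and 2.61 (mean 2.05 ± 0.83, adjusted p = 0.0132). Clu, a secreted chaperone, measured 0.44, 0.82 and 0.91 (adjusted p = 0.0379). Afp, the main serum protein of the fetus, measured 0.01, 2.42 and 3.01 (adjusted p = 0.0519). Ttr, a carrier of thyroid hormone and retinol-binding protein, measured -1.33, 2.54 and 2.98 (adjusted p = 0.236). Afp and Ttr were thus among the highest genes on arrays 2 and 3 and absent from the calls, since array 1 lay at 0 for Afp and below 0 for Ttr. Without array 1, Afp stood at 2.72 (adjusted p = 0.00283) and Ttr at 2.76 (adjusted p = 0.00427), and 5 of the 21 members were called higher. With the array set as a term in the fit, Afp stood at 1.65 (adjusted p = 0.028) and Ttr at 1.18 (adjusted p = 0.218).

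Lipid carriers showed the same order of arrays. Of 16 members 3 were higher and 1 lower, and the list median was 0.04, 0.31 and 0.92. Apoa1, the core apolipoprotein of high-density lipoprotein, measured 0.40, 2.03 and 3.11 (mean 1.84 ± 1.36, adjusted p = 0.0318). Apom, a lipoprotein component that carries sphingosine 1-phosphate, measured 0.25, 1.68 and 1.76 (adjusted p = 0.0235). Apoc2, the cofactor of lipoprotein lipase, measured 0.20, 1.53 and 3.85 (adjusted p = 0.068). Array 1 was lowest for these genes, although above 0 in each. Fabp1, a fatty acid binding protein of liver and intestine, measured 0.64, 0.35 and 0.99 (adjusted p = 0.0452). Lcat, which esterifies cholesterol in plasma, was the member called lower, at -0.35, -0.38 and -0.88 (adjusted p = 0.0247). Without array 1 the list again had 3 members higher and 1 lower, and Apoc2 passed (2.69, adjusted p = 0.0203). Whether the set of the array had a part in these differences between arrays was not tested.

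**Figure D2:**
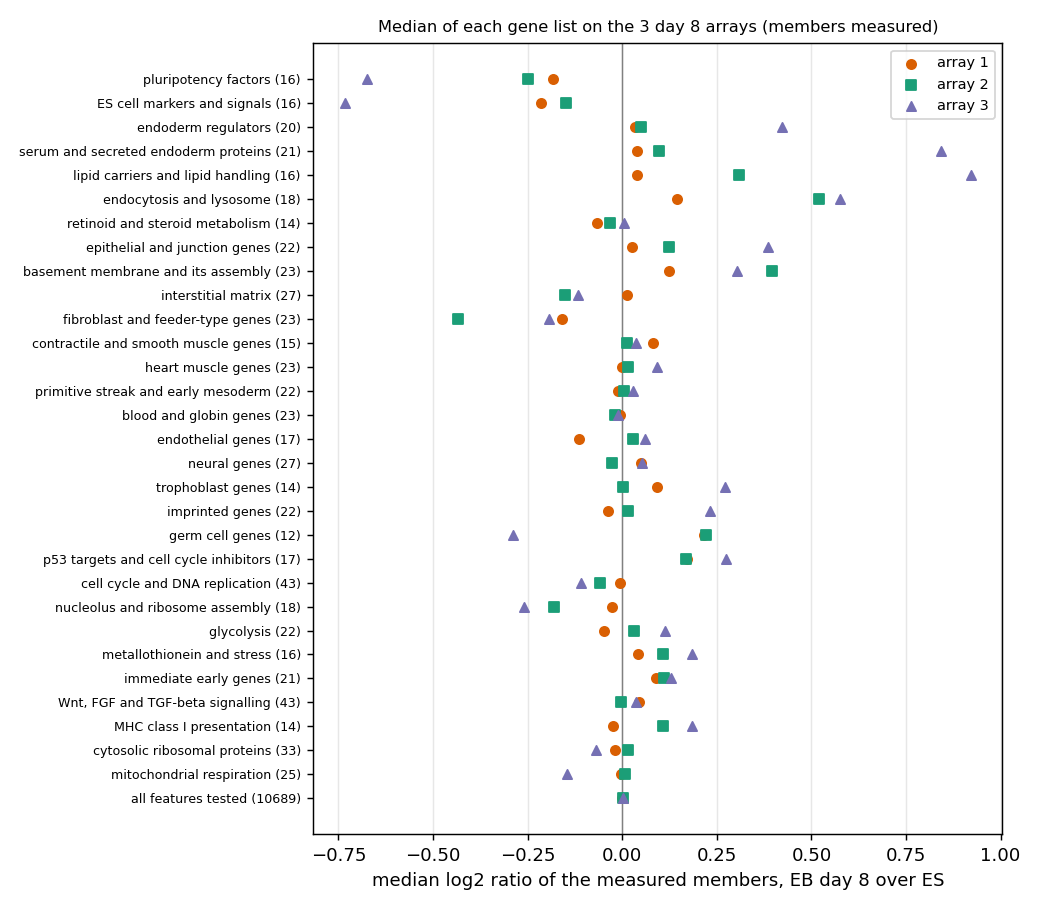
Median log2 ratio (day 8 EB over ES) of the measured members of each gene list on array 1, array 2 and array 3, with the number measured in brackets and all tested features in the last row. Serum proteins lie at 0.04, 0.10 and 0.84 and lipid carriers at 0.04, 0.31 and 0.92, while the medians over all features lie at 0.

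The single largest mean belonged to S100g, a cytosolic calcium-binding protein (calbindin-D9k) of absorptive epithelia and yolk sac. It measured 1.20, 2.17 and 3.51 on arrays 1 to 3 (mean 2.29 ± 1.16, adjusted p = 0.00755). Its order over the arrays was that of the secreted products, but array 1 was already above 1. Of 22 epithelial genes 2 were called higher and 0 lower, against 1.23% and 1.06% of all features tested. These were Krt18 and Krt8, the paired keratins of simple epithelia. Krt18 measured 1.00, 1.27 and 1.53 (adjusted p = 0.0191) and Krt8 0.20, 1.02 and 1.20 (adjusted p = 0.0247). The epithelial list had medians of 0.03, 0.12 and 0.39. Cited1 also stands in the trophoblast list, where it was the only call among 14 genes. With 2.28% of all features called, 1 call does not set a list of that size apart.

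Cyp26a1, the enzyme that clears retinoic acid, was high on all 3 arrays, which lay close together. It measured 1.42, 1.76 and 1.74 (mean 1.64 ± 0.19, adjusted p = 0.00349). It was the only one of 14 retinoid and steroid metabolism genes to be called, against 2.28% of all features tested. The list median was -0.07, -0.03 and 0.01. Rarb, a retinoic acid receptor gene that responds to its own ligand, averaged 0.12 ± 0.12 (adjusted p = 0.48). Cyp26a1 is a known retinoic acid target in mouse, and its promoter and that of Nanog are shown as those of a gene called higher and of a pluripotency factor called lower. Both were chosen after their values were seen. Each sequence is a RefSeq window of 300 bases that ends shortly after the annotated start, read along the gene's own strand in build GRCm38.p6. The Cyp26a1 window is chr19:37697558-37697857 on the + strand and the Nanog window is chr6:122707239-122707538 on the + strand. Capitals mark matches, on either strand, to the nuclear receptor hexamers AGTTCA and AGGTCA, the POU core ATGCAAA, the SOX core ACAATG, the GATA core AGATAA and the HNF1 hexamer GTTAAT.
Cyp26a1: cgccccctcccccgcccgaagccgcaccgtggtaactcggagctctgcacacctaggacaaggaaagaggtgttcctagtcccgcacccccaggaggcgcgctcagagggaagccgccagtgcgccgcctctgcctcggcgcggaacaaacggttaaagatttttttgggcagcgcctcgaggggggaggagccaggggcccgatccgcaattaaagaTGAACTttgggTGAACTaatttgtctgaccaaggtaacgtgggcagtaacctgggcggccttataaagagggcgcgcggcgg
Nanog: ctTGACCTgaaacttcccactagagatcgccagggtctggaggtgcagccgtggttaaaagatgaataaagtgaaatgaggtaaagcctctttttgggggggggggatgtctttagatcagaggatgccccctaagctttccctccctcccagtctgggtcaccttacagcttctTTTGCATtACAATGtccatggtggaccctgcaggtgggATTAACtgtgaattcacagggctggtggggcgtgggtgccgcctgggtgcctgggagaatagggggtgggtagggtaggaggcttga
In the Cyp26a1 window AGTTCA occurs in 2 places on the minus strand, at bases 219 to 224 and 230 to 235, with 5 bases between them. AGTTCA alone is in 14% of the 32851 promoter windows, and the pair with that spacing and orientation is in 8 windows of 8 genes (0.0244%). In the Nanog window the POU core on the minus strand ends 1 base before the SOX core on the plus strand, at bases 176 to 182 and 184 to 189. The POU core alone is in 4.63% of windows and the SOX core in 12.6%, and the 2 in this arrangement are in 2 windows of 1 gene (0.00609%). The HNF1 hexamer is in 7.1% of windows and AGGTCA in 16.3%. Both arrangements counted were those found in the windows shown, and the counts include these windows. The matches describe letters in the windows and were set against no measurement of binding.

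Of the pluripotency factors 4 of 16 were lower and 0 higher, with list medians of -0.18, -0.25 and -0.67. Zfp42 (Rex1), a zinc finger protein of undifferentiated ES cells, measured -0.90, -1.35 and -1.60 (mean -1.28 ± 0.35, adjusted p = 0.00206). Nanog, a homeobox factor of the core network, measured -0.89, -0.49 and -0.88 (mean -0.75 ± 0.23, adjusted p = 0.0496). Sox2, its partner factor, measured -0.18, -0.72 and -0.85 (adjusted p = 0.0319). Nr0b1, a nuclear receptor of ES cells, measured -0.18, -0.67 and -1.66 (adjusted p = 0.0478). All were below 0 on every array, and array 1 lay nearest to 0 for each of them but Nanog. Pou5f1 (Oct4), the third core factor, measured -0.01, -0.36 and -0.69 and did not pass (adjusted p = 0.208). Without array 1, 3 of the 16 were called, and Nanog had -0.68 (adjusted p = 0.152). Among 16 other ES cell markers and signals 2 were lower and 0 higher. These were Dppa5a, an RNA-binding protein of ES cells, at -0.58, -0.50 and -1.06 (adjusted p = 0.022), and Phc1, a Polycomb subunit, at -0.49, -0.61 and -0.84 (adjusted p = 0.019).

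Of 23 genes typical of fibroblasts 3 were lower in EB and 1 was higher, against 1.06% and 1.23% of all features tested. List medians were -0.16, -0.43 and -0.19. Ccl2, a chemokine that recruits monocytes, measured -1.04, -1.89 and -2.30 (mean -1.74 ± 0.64, adjusted p = 0.022). Tm4sf1, a membrane protein of mesenchymal and endothelial cells, measured -0.62, -1.67 and -2.31 (adjusted p = 0.0346). Cav1, the caveolar coat protein, measured -0.23, -0.43 and -0.97 (adjusted p = 0.048). The member called higher was Pdgfra, a growth factor receptor of primitive endoderm as well as mesenchyme, at 0.78, 0.69 and 0.63 (adjusted p = 0.0461). Without array 1, 7 members were lower and 0 higher, and with the arrays scaled to a common spread 8 were lower and 1 higher. Over all features 2.28% were called, and at that share 1 call does not set the contractile, neural or endothelial list apart. Tagln, an actin-binding protein of smooth muscle, was the only call among 15 contractile genes and measured -0.94, -0.83 and -0.81 (adjusted p = 0.0162). Stmn2, a tubulin-binding protein of neurons, was the only call among 27 neural genes, at -0.48, -1.26 and -1.64 (adjusted p = 0.00879). Nos3, the endothelial nitric oxide synthase, was the only call among 17 endothelial genes, at -0.49, -0.60 and -1.70 (adjusted p = 0.0248). Whether other cells in the ES cultures had a part in these values was not tested.

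In the lists of mesoderm and its derivatives below, at most 1 gene each passed at day 8. Over all 10689 features 2.28% passed and 2053 had an unadjusted p under 0.05. At that share, 0 or 1 call does not set a list of this size apart. With limma 0 of 23 blood and globin genes passed, 2 had an unadjusted p under 0.05, and the other settings called 0 to 2. The embryonic globin Hbb-bh1 averaged -0.07 ± 0.13 (adjusted p = 0.888), and Kdr, a receptor of blood and endothelial precursors, averaged 0.06 ± 0.05 (adjusted p = 0.774). Of 23 heart muscle genes 1 was higher, the myosin chain Myh7, at 0.71, 0.29 and 0.59 (adjusted p = 0.0492). Actc1, cardiac actin, averaged 0.23 ± 0.05 (adjusted p = 0.339). Of 22 genes of primitive streak and early mesoderm 1 was lower, the growth factor Bmp4, at -0.39, -0.69 and -0.67 (adjusted p = 0.0323). Of 27 interstitial matrix genes 1 was lower, the protease inhibitor Timp1, at -0.27, -0.50 and -1.18 (adjusted p = 0.0478), and none was higher. Neural markers such as Pax6 (-0.10 ± 0.14, adjusted p = 0.842) and Tubb3 (-0.06 ± 0.05, adjusted p = 0.786) did not pass. The Pax6 value averages probes of opposite sign, with means of -0.54 and 0.35.

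Of 43 Wnt, FGF and TGF-beta signalling genes 1 was called higher and 1 lower, against 1.23% and 1.06% of all features tested. Fst, follistatin, which binds and blocks activin, measured 1.16, 0.76 and 0.81 (mean 0.91 ± 0.22, adjusted p = 0.0323). Inhba, the activin A subunit, measured -0.89, -0.76 and -1.37 (mean -1.01 ± 0.32, adjusted p = 0.0166). Neither gene's arrays came near 0. Of 17 p53 targets and cell cycle inhibitors 3 were higher and 0 lower. They were Ccng1, cyclin G1, at 0.68, 0.70 and 0.33 (adjusted p = 0.0238), Trp53inp1, a p53-induced nuclear protein, at 0.86, 0.45 and 0.38 (adjusted p = 0.0338), and Gadd45b, a stress-induced growth arrest gene, at 0.38, 0.67 and 0.55 (adjusted p = 0.0478). Array 1 was the highest or close to the highest for Ccng1 and Trp53inp1. Without array 1, 1 of the 17 was called, and Fst had 0.79 (adjusted p = 0.127). Of 43 cell cycle and replication genes 1 was called, the G1 cyclin Ccnd2, which rose by 0.97 ± 0.25 (adjusted p = 0.0132), while the proliferation marker Mki67 averaged -0.05 ± 0.09 (adjusted p = 0.798). Sycp3, a protein of the meiotic chromosome axis, was the only call among 12 germ cell genes, at 0.76, 0.82 and 0.96 (adjusted p = 0.019). Erap1, an aminopeptidase that trims peptides for MHC class I, was the only call among 14 genes of that pathway, at 0.88, 0.59 and 0.82 (mean 0.76 ± 0.15, adjusted p = 0.00206). With 2.28% of all features called, 1 call does not set the cell cycle, germ cell or MHC class I list apart.

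The housekeeping groups below had 0 calls. Over all 10689 features 2.28% were called, a share at which lists this small can have 0 calls. Of all these features 2053 had an unadjusted p under 0.05. With limma 0 of 33 cytosolic ribosomal protein genes were called, 2 had an unadjusted p under 0.05, and each of 20 other settings also called 0. The counts were 0 of 25 for mitochondrial respiration (3 unadjusted, 0 to 1 in other settings) and 0 of 18 for nucleolus and ribosome assembly (4 unadjusted, 0 to 2 in other settings). Of the 18 nucleolar genes 17 had a mean below 0. Actb, the cytoskeletal actin, did not pass either (0.20 ± 0.06, adjusted p = 0.388). Immediate early genes had 0 of 21 calls with 8 unadjusted, and other settings called 0 to 5. Egr2, a growth-factor-induced transcription factor, measured -0.06, 0.45 and 4.34, so that its mean of 1.58 came almost wholly from array 3.

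Some large means came from a single array. Nmur1, a neuropeptide receptor, measured 0.18, 0.02 and 4.33 and was not called (adjusted p = 0.182). Another 3 genes, which were called, had the same shape on a raised base. St3gal6, a sialyltransferase, measured 0.96, 0.81 and 3.24 (adjusted p = 0.0357) and had 0.88 without array 3. Vldlr, a lipoprotein receptor, measured 0.80, 0.78 and 3.16 (adjusted p = 0.0478) and had 0.79 without it. Bace2, an aspartic protease, measured 0.71, 0.88 and 2.78 (adjusted p = 0.0356) and had 0.79 without it. The gap between array 1 and the mean of arrays 2 and 3 was widest for Ttr. Ptgs2, the inducible prostaglandin synthase, had a wide gap in the other direction, at 0.20, -1.20 and -1.94. These gaps chose the genes and carry no test.

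**Figure D3:**
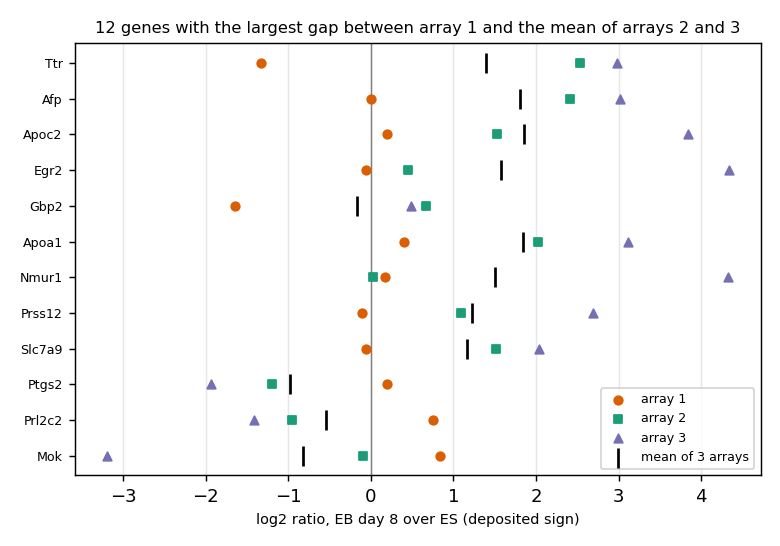
The 12 genes with the largest gap between array 1 and the mean of arrays 2 and 3, shown as the log2 ratio (day 8 EB over ES) on each array with the mean as a black tick. Ttr lies at -1.33 on array 1 and at 2.54 and 2.98 on arrays 2 and 3, while Egr2 and Nmur1 owe their means to array 3.

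Day 8 and the days beside it were compared by differences of the day means, in which the ES channel drops out. Between day 8 and day 4, 0 features (0%) passed with limma, 746 had an unadjusted p under 0.05, and the smallest adjusted p was 0.193. Array weights gave 78 calls, quantile normalization 2, and leaving out 1 array 0 to 6. At day 4, S100g measured -0.05, 0.26 and 0.11, all below each of its day 8 values, and day 8 was higher by 2.19 (adjusted p = 0.23). At day 4 Cyp26a1 measured 0.09, 0.34 and 1.37, which is below its day 8 range of 1.42 to 1.76, and day 8 was higher by 1.04 (adjusted p = 0.41). For the secreted products the days overlapped. Afp measured 0.22, -0.48 and 1.17 at day 4 and Ttr 0.38, 0.06 and 1.86, so that day 4 array 3 exceeded day 8 array 1 for both. Day 4 array 3 and day 8 arrays 2 and 3 belong to the second set of arrays.

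Between day 15 and day 8, 19 features (0.178%) passed, 14 higher at day 15 (0.131%) and 5 lower (0.0468%). The split was 17 higher and 2 lower after quantile normalization and 11 higher and 2 lower after scaling. Of the interstitial matrix list 4 of 27 were higher at day 15 and of the imprinted list 4 of 22. Postn, a matrix protein of mesenchyme, measured 2.62, 2.68 and 2.06 at day 15, against -0.10, 0.02 and 0.12 at day 8, a difference of 2.44 (adjusted p = 2.45e-05). Col1a2, a type I collagen chain, measured 2.15, 2.26 and 1.07 at day 15, against -0.19, -0.66 and -0.84 at day 8, a difference of 2.39 (adjusted p = 0.00838). Igf2, an imprinted fetal growth factor, measured 2.32, 1.95 and 2.31 at day 15, against 0.05, 0.09 and 0.85 at day 8 (difference 1.86, adjusted p = 0.00567). Genes were named for this difference only where the arrays of the 2 days did not overlap, so their separation was set by that choice. Bmp4, lower than ES at day 8, measured 0.80, 0.94 and 0.19 at day 15, against -0.39, -0.69 and -0.67 at day 8 (difference 1.23, adjusted p = 0.013). Sycp3 turned the other way, with -0.50, -0.66 and -0.17 at day 15 against 0.76, 0.82 and 0.96 at day 8 (difference -1.29, adjusted p = 0.0325). Upp1, uridine phosphorylase, measured -1.82, -1.81 and -1.44 at day 15, against 0.16, -0.48 and -0.87 at day 8 (difference -1.29, adjusted p = 0.0336), and its call was lost after quantile normalization (adjusted p = 0.0627) and after scaling (adjusted p = 0.0733). The count was 126 without day 15 array 3, 4 without day 15 array 1, 8 without day 15 array 2, 9 without day 8 array 1, 7 without day 8 array 2 and 12 without day 21 array 2. None was lower without day 15 array 1 or 2 or without day 8 array 1 or 2.

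**Figure D4:**
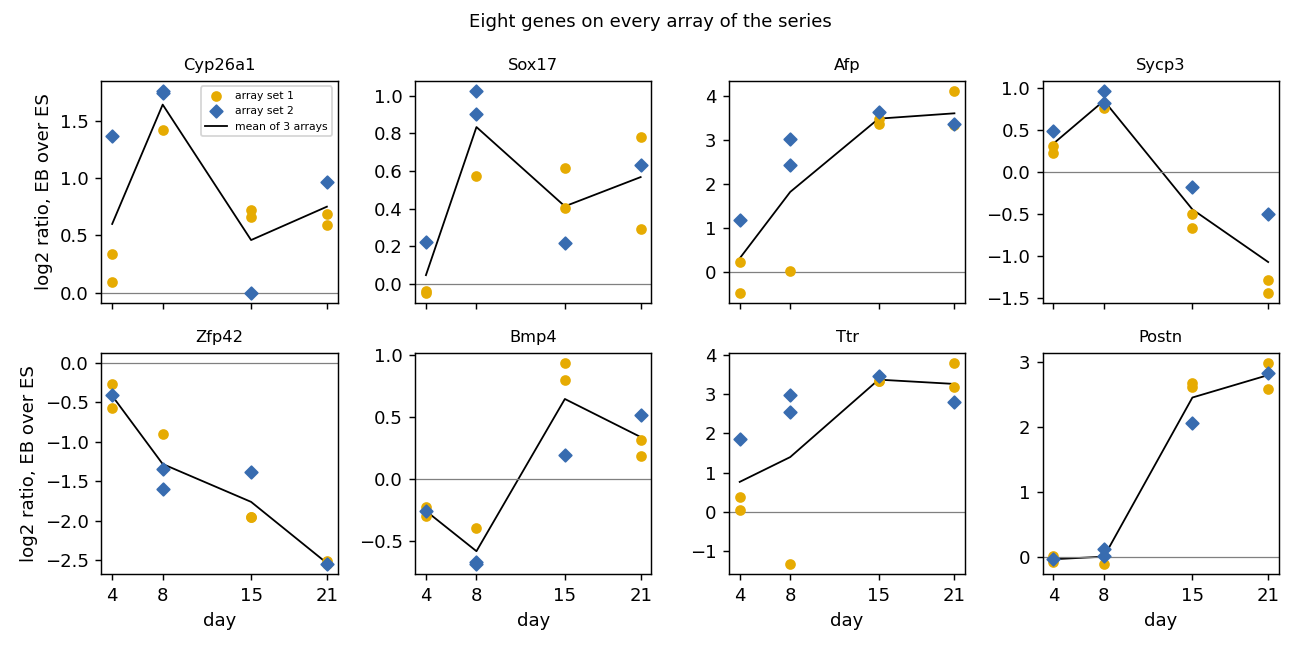
Log2 ratio (EB over ES) of 8 genes on all 12 arrays, by day of plating, with the 2 sets of arrays in different symbols and the mean of each day as a line. Day 15 arrays lie close together for Ttr and Afp, whereas the day 8 arrays span -1.33 to 2.98 for Ttr and 0.01 to 3.01 for Afp.

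Ttr and Afp were alike on the 3 arrays of day 15. Ttr measured 3.33, 3.32 and 3.45 at day 15 and Afp 3.35, 3.46 and 3.62, so that day 8 arrays 2 and 3 lay below these values for both genes. Spink1 measured 2.64, 2.57 and 2.49 at day 15, a range that contains the 2.61 of day 8 array 3. Cyp26a1 went the other way, at 0.72, 0.66 and 0.00 at day 15, below each of its day 8 values, and the difference of -1.18 did not pass (adjusted p = 0.144).

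**Figure D5:**
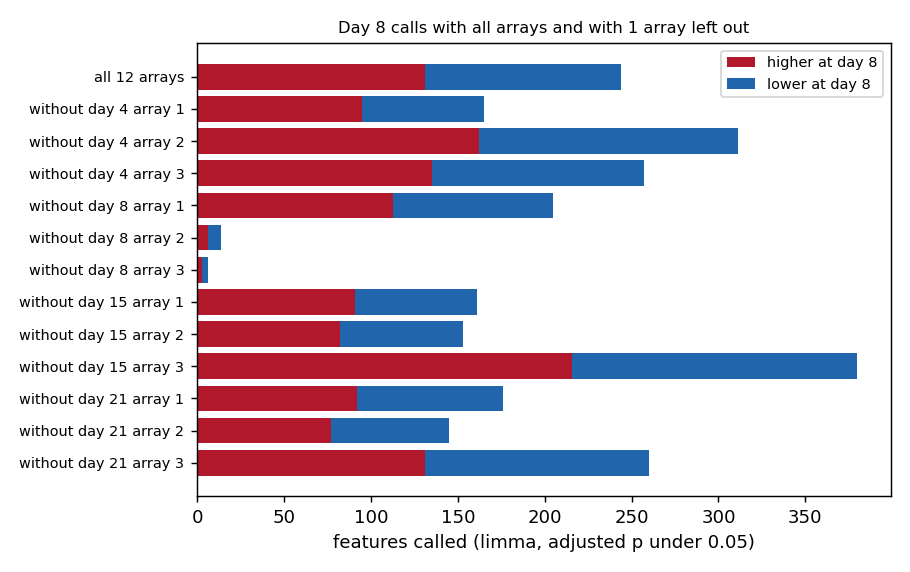
Number of features called at day 8 (higher in EB and lower in EB, stacked) with all 12 arrays and with each array left out in turn. The count is 244 with all arrays, 14 without day 8 array 2, 6 without day 8 array 3 and 380 without day 15 array 3.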

How the data were processed

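Messenger RNA of plated EB cultures and of R1 ES cells was hybridised together on 12 two-channel arrays, 3 for each of days 4, 8, 15 and 21, and groups were taken from the sample titles. Per the labels' protocols, RNA was copied to cDNA, from which dyed RNA was transcribed. The deposited values are log ratios that the authors had normalized, read here as log2. The normalization, scanner and background correction were not given in the sources used here. Spot intensities were not used here, so dim or saturated spots could not be marked. The stated precision rests on the number of arrays and the spread between them alone.

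The table held 11520 features without missing values. GEO's annotation of the platform, possibly out of date, gave 1 gene symbol for 10043, several for 29 and none for 1448. By Entrez ID 10025 symbols matched RefSeq's GRCm38.p6 gene table and 0 changed. Probes of a symbol were averaged, giving 9212 genes (754 with more than 1 probe) and 10689 features with those that had no single symbol.

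Features were tested with limma 3.58.1 in R 4.3.3 (lmFit and eBayes) over all 12 arrays with 1 mean per day (8 residual and 4.35 prior degrees of freedom). The day 8 mean was tested against 0 and against days 4 and 15 by contrasts, two-sided, with Benjamini-Hochberg adjustment over all features and a threshold of 0.05. The ES channel counts as 1 control sample, so the test against 0 leaves out the spread of the control. From the 3 day 8 arrays alone, an exact sign-flip test could not go below p = 0.25. Errors after ± are standard deviations over 3 arrays.

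The members, the 30 gene lists (744 genes, 629 measured) and the tests were chosen with earlier results of these data known. Named genes were the 20 highest and 15 lowest means among called genes with 1 sign. Added to these were up to 5 called members of each list, or else up to 3 with the largest means. The 12 widest gaps between array 1 and the others and 34 markers, of which 33 were measured, were also named. So were up to 8 genes each way called between days whose arrays did not overlap between the 2 days. Genes outside this rule (Plat, Lamc1 and Col4a2 in the results and all but Klk1 under other observations) were chosen after their values were seen. The alternatives were quantile normalization, scaling of arrays, array weights, a replicate block, robust eBayes, features or median probes, single days, each array left out and, chosen after seeing the data, the array set as a term. Promoter windows came from RefSeq. Plots were drawn with matplotlib 3.10.9.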

Additional observations from a re-analysis of the deposited data

Results flagged for a closer look

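The difference between day 15 and day 8 passed limma's test (adjusted p under 0.05) for 13 genes named for that difference and for Tagln. The difference between the days was itself the quantity tested. Higher at day 15 were Postn (2.44), Col1a2 (2.39), Igf2 (1.86), Dlk1 (1.47), Col3a1 (1.32), Mest (1.32), Col1a1 (1.27), Bmp4 (1.23) and Tagln (1.12). Dlk1 and Mest are imprinted genes of fetal growth, and Col3a1 and Col1a1 are fibrillar collagen chains. Lower at day 15 were Sycp3 (-1.29), Upp1 (-1.29), Ldhb (-0.92), Prps1 (-0.79) and Dis3 (-0.60). Ldhb is a lactate dehydrogenase subunit, Prps1 makes a precursor of nucleotides and Dis3 is a ribonuclease of the RNA exosome. The calls of Upp1, Prps1 and Dis3 were lost after quantile normalization and after scaling, and those of Col3a1 (0.32) and Col1a1 (0.87) with the median of probes. Of the 13 genes, Postn, Dlk1, Col3a1 and Mest kept the call without each of the 12 arrays in turn. The Col3a1 and Col1a1 values average probes that differed at day 8, with means of -0.62, 0.08 and 0.05 for Col3a1 and -0.62, -0.03 and 0.04 for Col1a1.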

How the results depend on the processing

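The day 8 count of 244 calls depended on the setting. It was 518 after quantile normalization, 580 after scaling, 999 with array weights, 454 with the array set as a term (210 higher and 244 lower) and 1 from the day 8 arrays alone. Leaving out 1 array gave 6 to 380, with 14 without day 8 array 2, 6 without day 8 array 3, 161, 153 and 380 when day 15 array 1, 2 or 3 was dropped, and 145 without day 21 array 2. The difference between day 8 and day 4, with 0 calls, had 2 after quantile normalization, 78 with array weights and 0 to 6 on leaving out 1 array. The difference between day 15 and day 8, with 19 calls, had 582 with array weights, 5 from the 2 days alone and 4 to 126 on leaving out 1 array. The causes of these changes were not tested beyond the smaller number of arrays in some settings. Same-numbered arrays of different days correlated in their deviations by -0.14 to 0.389 (median 0.0807, 8 of 18 pairs over 0.1). Differently numbered arrays did so by -0.322 to 0.186 (median -0.034, 5 of 36 pairs over 0.1). Of the 12 arrays 8 correlated best with their own number. Same-numbered arrays were thus somewhat more alike, and whether the numbers pair the samples is not settled. The main fit had no block for the numbers. With the replicate number as a block there were 350 calls at day 8 (153 higher and 197 lower), 0 between days 8 and 4, and 16 between days 15 and 8 (15 higher and 1 lower). The block ended the day 8 calls of Cav1 (adjusted p = 0.0511), Cubn (0.0576), Gata4 (0.0548), Timp1 (0.0578) and Vldlr (0.0567), and the day 15 calls of Upp1 (0.0675), Ldhb (0.0622), Prps1 (0.0804) and Dis3 (0.0804). Of 64 named genes called at day 8, 61 were called after quantile normalization, 64 after scaling, 63 with array weights, 59 with the block and 64 with a term for the array set. Robust eBayes kept 56 of the 64 and the median of probes kept 63. Dropping an array cost more: 46 held without day 8 array 1, 8 without day 8 array 2 and 6 without day 8 array 3. Only 5 of the 64 held without each of the 12 arrays in turn. None of the 64 changed sign in any setting. Leaving out 1 array could not turn them, because called features had the same sign on all 3 day 8 arrays. Some uncalled genes near 0 did change sign. At day 8 Postn ran from -0.043 to 0.0704 and Ldhb from -0.1643 to 0.0591 on leaving out 1 array. Ldhb stood at 0.0388 with array weights, and Col3a1 stood at 0.0352 with the median of probes. Scanner intensities were not used here, so the limit set by signal over background is unknown.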

Other observations

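Several called genes outside the lists, most of them chosen after their values were seen, were higher in EB and above 0 on each of the 3 day 8 arrays. Pth1r, the receptor for parathyroid hormone-related protein, measured 0.81, 1.08 and 1.00 (mean 0.96 ± 0.14, adjusted p = 0.00738). Itga8, an integrin chain, measured 0.74, 0.51 and 0.89 (adjusted p = 0.00349), and Gata5, a GATA factor of endoderm and heart, 0.77, 0.08 and 0.63 (adjusted p = 0.0376), with array 2 near 0. The clotting regulators F3, which starts coagulation, and Tfpi, which blocks it, measured 0.45, 0.87 and 0.47 and 0.17, 0.90 and 1.07 (adjusted p = 0.0304 and 0.0247). Ero1a and Dnajb9, which serve protein folding in the endoplasmic reticulum, averaged 0.75 ± 0.17 and 0.54 ± 0.09 (adjusted p = 0.0166 and 0.0226).

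On the lower side, Ceacam2, a cell adhesion molecule, measured -0.80, -0.63 and -1.05 (adjusted p = 0.00215). Idi1, an enzyme of isoprenoid and cholesterol synthesis, measured -0.91, -0.77 and -0.72 (adjusted p = 0.00349). Both calls held without day 8 array 2 and without day 8 array 3. Klk1, a tissue kallikrein, measured -0.81, -1.56 and -1.88 (adjusted p = 0.0235), but mouse kallikreins are near-identical copies, so its probe may also read relatives.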
